A study of Homo sapiens with 9 samples.

Results

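BT-549 is an established human triple-negative breast cancer cell line with mesenchymal features. The comparison described here is that of 3 arrays from cells that received a miR-150-5p mimic, a synthetic copy of the mature microRNA, with 3 arrays from cells that received an unrelated small RNA, the negative control (NC), and these are 6 of the 9 arrays of the series. Both small RNAs were used at 50 nM, carried into the cells by the lipid reagent Lipofectamine RNAiMAX. The other 3 arrays come from mock cells, given the lipid without RNA, and serve as context only. In every group the medium was exchanged after 24 h and total RNA was taken at 72 h. Because mimic and NC cells both received a short RNA, their difference addresses what the mimic did beyond the transfection of a small RNA. It also contains any effect particular to this NC RNA. Whether the 3 samples of a group came from separate cultures is not stated in the labels. The p-values therefore measure only the spread between these samples, possibly a technical one, and precision is limited by the number of arrays.

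MicroRNAs are short RNAs that Argonaute proteins carry to messenger RNAs, which they recognise mainly through the seed, a few bases near the 5′ end of the microRNA, and the usual outcome is less messenger RNA and less protein. miR-150 is best known from lymphocytes, where the transcription factor gene MYB is its classic target, and in carcinoma cells it has been studied for growth, migration and epithelial to mesenchymal transition. A mimic adds the mature strand directly, so genes can move as direct targets or as later consequences, and an array taken at a single time does not separate them.

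Each value is a log2 signal, so a difference of 1 is a doubling. A gene was represented by its brightest array feature with exactly 1 gene symbol, which gave 14884 genes. Of these, 473 (3.18%) differed between mimic and NC at an adjusted p under 0.05 in limma, 262 (1.76%) higher and 211 (1.42%) lower with the mimic. The median difference over all genes was -0.004. When the arrays were quantile-normalised once more, 176 genes were higher and 289 lower, so the share of risers among called genes was 37.9% in place of 55.4%, and it was 59.7% with arrays centred on their medians. The number of calls also rested on single arrays: it was 199 without mimic 3, 206 without mimic 1, 221 without NC 3, 234 without mimic 2, 263 without NC 1 and 314 without mock 1. In 143 genes (0.961%), 73 higher and 70 lower, the adjusted p stayed under 0.05 when each of the 9 arrays was left out in turn. The arrays of mimic and NC did not overlap in 2771 genes (18.6%) and in all 473 called genes, so where a called gene is said not to overlap, that describes it and adds nothing to its call. Genes called changed below kept their call in every such omission unless the highest adjusted p over those omissions is given, together with the arrays whose omission ended the call.

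**Figure D1:**
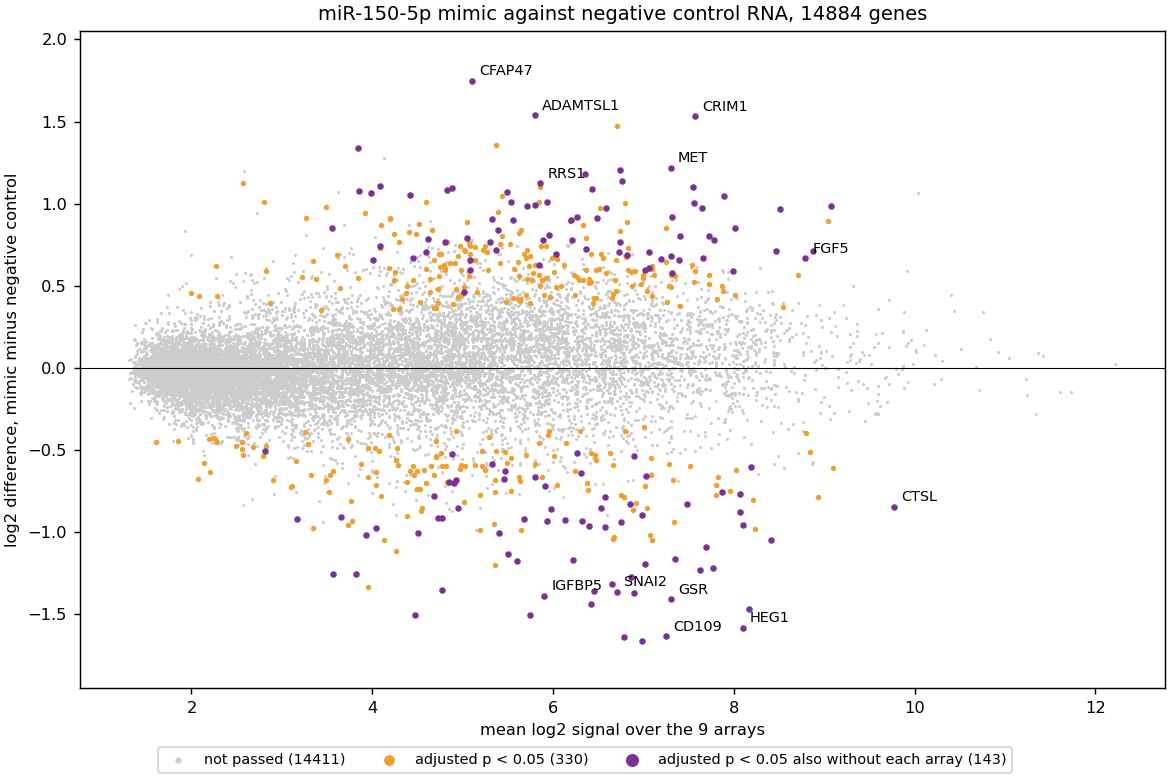
Log2 difference, mimic minus negative control (vertical axis), against the mean log2 signal over the 9 arrays (horizontal axis); each point is 1 of the 14884 genes. Orange marks genes with an adjusted p under 0.05 and purple the 143 that kept it without each array. Purple points lie on both sides of 0, 73 above and 70 below, and the names mark a few of the genes described in the text.

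Array medians lay between 2.43 and 2.48, and Pearson's r across features was 0.977 to 0.983 between mimic and NC arrays against 0.981 to 0.989 within groups; features are not independent replicates. Averaged over 23 small nucleolar or Cajal body RNAs, the signal was 5.91, 6.83 and 5.87 in NC 1 to 3 and 6.43, 5.95 and 6.75 in mimic 1 to 3. Mock 1 to 3 read 5.62, 6.78 and 5.64. The groups overlapped, but the arrays lay at a higher level (mock 2, NC 2, mimic 1 and mimic 3) or a lower one. More mimic than NC arrays were at the higher level, and how far this entered the calls was not tested. The labelled cell line was checked against its markers. ESR1, PGR, ERBB3, EPCAM and ESRP1, which luminal breast cells express, gave signals from 1.64 to 2.41 in all 9 arrays, and RB1, lost in this line, gave 2.53 to 2.77. VIM, FN1, AXL and ANXA1 lay between 7.85 and 10.4. Against the list, GATA3 read 5.04 to 6.11, KRT18 7.31 to 7.75 and KRT8 3.44 to 4.27, where low signals had been listed. S100A4 read 2.49 to 3.33, where a high one had. Of the 11 blood cell and 9 endothelial markers measured, 2 and 1 had a mean signal at or above the median gene signal of 3.34. CD68, on the blood cell list, read 6.19 to 6.84. Between mimic and NC, 0 of these markers were called by limma, and 2 and 0 had an unadjusted p under 0.05. That comparison does not show whether a marker is expressed.

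The transcripts most often named as targets of miR-150 mostly did not pass the test. MYB gave 2.42, 2.49 and 2.42 in NC 1 to 3 and 2.36, 2.36 and 2.42 with the mimic, a weak signal in every array. CXCR4, a chemokine receptor gene, was also weak, at 2.5, 2.56 and 2.77 against 2.38, 2.54 and 2.24, and the groups overlapped (log2 difference -0.22 ± 0.11 SE, adjusted p = 0.36). NOTCH3, which encodes a receptor of cell-to-cell signalling, read 5.59, 5.36 and 6.13 in NC and 5.58, 5.99 and 5.80 with the mimic, and its small positive difference changed sign after a second quantile normalisation. ZEB1, a repressor of epithelial genes, was the exception among the 4 genes: NC gave 7.15, 6.98 and 7.05 and the mimic 6.70, 6.72 and 6.67. Mock read 7.25 to 7.33. The fall was small (-0.36 ± 0.076, adjusted p = 0.036) and was lost without any array but NC 2 (adjusted p up to 0.11).

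A wider list held 19 measured genes named as targets of the microRNA in earlier work. Of them 2 fell, 1 rose and 16 did not pass, with a median of -0.007. Besides ZEB1, the faller was MMP14, a membrane-bound collagenase, at 5.10, 4.99 and 4.95 in NC and 4.26, 4.33 and 4.36 with the mimic (-0.69 ± 0.11, adjusted p = 0.013, 0.054 without mimic 1). The riser went against the usual direction of a target: HMGA2, an architectural chromatin protein of embryonic and tumour cells, gave 5.82, 5.40 and 5.78 in NC and 6.45, 7.0 and 6.58 with the mimic (1.01 ± 0.15, adjusted p = 0.0089). Without mimic 1 the list kept 1 call. Among 12 genes of microRNA processing and Argonaute function, DGCR8, which binds primary microRNAs for the enzyme Drosha, read 3.91 to 4.06 in NC and 4.38 to 4.66 with the mimic (0.54 ± 0.11, adjusted p = 0.028). That call was lost without mock 1, any NC array, mimic 1 or mimic 2 (up to 0.097). XPO5, the exporter of microRNA precursors (0.32 ± 0.14), and the Argonaute partners TNRC6A (0.25 ± 0.13) and TNRC6B (-0.33 ± 0.13) did not pass.

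The largest fall was that of SLC49A4, a lysosomal membrane transporter, from 7.33, 7.52 and 7.92 in NC to 6.02, 5.89 and 5.88 (3.16-fold lower, adjusted p = 0.0016). SLFN5, a Schlafen family gene, went from 7.39, 7.19 and 7.35 to 5.66, 5.86 and 5.49 (3.12-fold lower, adjusted p = 0.0020). CD109, a surface protein that binds TGF-beta, fell from 7.59, 7.54 and 7.74 to 6.09, 6.05 and 5.82, and the other feature of the gene gave only -0.23. In these 3 genes every mimic array lay more than 1 log2 unit below every NC array. The mock arrays read 7.16 to 7.71, 7.03 to 7.78 and 7.99 to 8.26, so they overlapped NC or lay above it. HEG1, a mucin-like membrane protein, was more spread, at 8.71, 8.12 and 8.98 against 6.73, 7.39 and 6.95.

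Further genes among the 20 largest falls differed in function. DDOST, a subunit of the enzyme that attaches N-glycans in the endoplasmic reticulum, went from 7.40, 7.47 and 7.18 to 6.14, 6.07 and 6.03 (-1.27 ± 0.091, adjusted p = 0.00039). GXYLT2, a xylosyltransferase that extends sugars on NOTCH-type repeats, gave 9.04, 8.31 and 8.97 against 7.13, 7.51 and 7.29. The lysosomal protease CTSO went from 4.18, 4.76 and 4.30 to 3.21, 3.17 and 3.10. CEP20, a protein of centrioles and cilia, gave 7.54, 7.74 and 7.11 against 6.19, 6.04 and 6.05, with mock at 7.07 to 7.26.

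In several of the largest changes the mock arrays lay with the mimic arrays and the NC arrays stood apart. MET, the receptor of hepatocyte growth factor, read 6.47, 6.21 and 6.43 in NC, 7.56, 7.62 and 7.59 with the mimic and 8.02, 7.81 and 7.98 in mock. Its rise against NC (2.33-fold, adjusted p = 0.00051) therefore ended below the mock level. CLDN1, a tight junction protein, had a similar order, at 6.62, 6.68 and 6.78 in NC, 7.98, 7.78 and 7.63 with the mimic and 7.80 to 8.37 in mock. VLDLR, a lipoprotein receptor, was at 3.34 to 3.48 in NC, 4.33 to 4.72 with the mimic and 4.25 to 4.41 in mock. Among the falls, PNMA1, a paraneoplastic antigen gene, read 7.21 to 7.28 in NC, 5.58 to 6.06 with the mimic and 6.06 to 6.43 in mock. ADAM19, a membrane metalloprotease, read 7.05 to 7.40, 5.76 to 5.98 and 6.05 to 6.40 in the same order. Mimic against NC and NC against mock share the NC arrays, so the 2 differences are not independent, and 96 genes (0.645%) were called in NC against mock. Among the 20 largest rises these included CFAP47, CRIM1, MET, MSANTD3-TMEFF1, THOC5, VLDLR and CLDN1, all lower in NC than in mock. Among the 20 largest falls they included PNMA1 and ADAM19, both higher in NC. How much of such a change is particular to the NC RNA was not tested.

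Other rises took the mimic arrays away from both kinds of control. ADAMTSL1, a secreted matrix protein without protease activity, read 5.25, 5.25 and 5.53 in NC, 6.88, 7.05 and 6.71 with the mimic and 4.96 to 5.33 in mock (2.90-fold against NC, adjusted p = 0.00091). CFAP47, named for cilia and flagella, went from 4.21, 4.31 and 4.37 to 6.17, 6.06 and 5.91, with mock in between at 4.95 to 4.97. POLR3B, a subunit of the RNA polymerase that makes transfer RNA, gave 4.53, 4.55 and 4.41 against 5.76, 5.42 and 5.61. All mimic arrays of these 3 genes exceeded all 6 control arrays. The same held for ANKRD52, a regulatory subunit of a phosphatase that acts on Argonaute (5.82 to 6.13 in NC, 6.94 to 7.33 with the mimic, 6.08 to 6.41 in mock), and for GEN1, a resolvase of DNA junctions (3.91 to 4.07, 4.81 to 5.25 and 4.09 to 4.41). IQGAP3, a scaffold protein of proliferating cells, read 5.25, 5.14 and 5.10 in NC and 6.24, 6.24 and 6.05 with the mimic. SRPRA, which docks ribosomes of secreted proteins at the endoplasmic reticulum, read 7.33, 7.49 and 7.52 in NC and 8.70, 8.34 and 8.43 with the mimic.

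**Figure D2:**
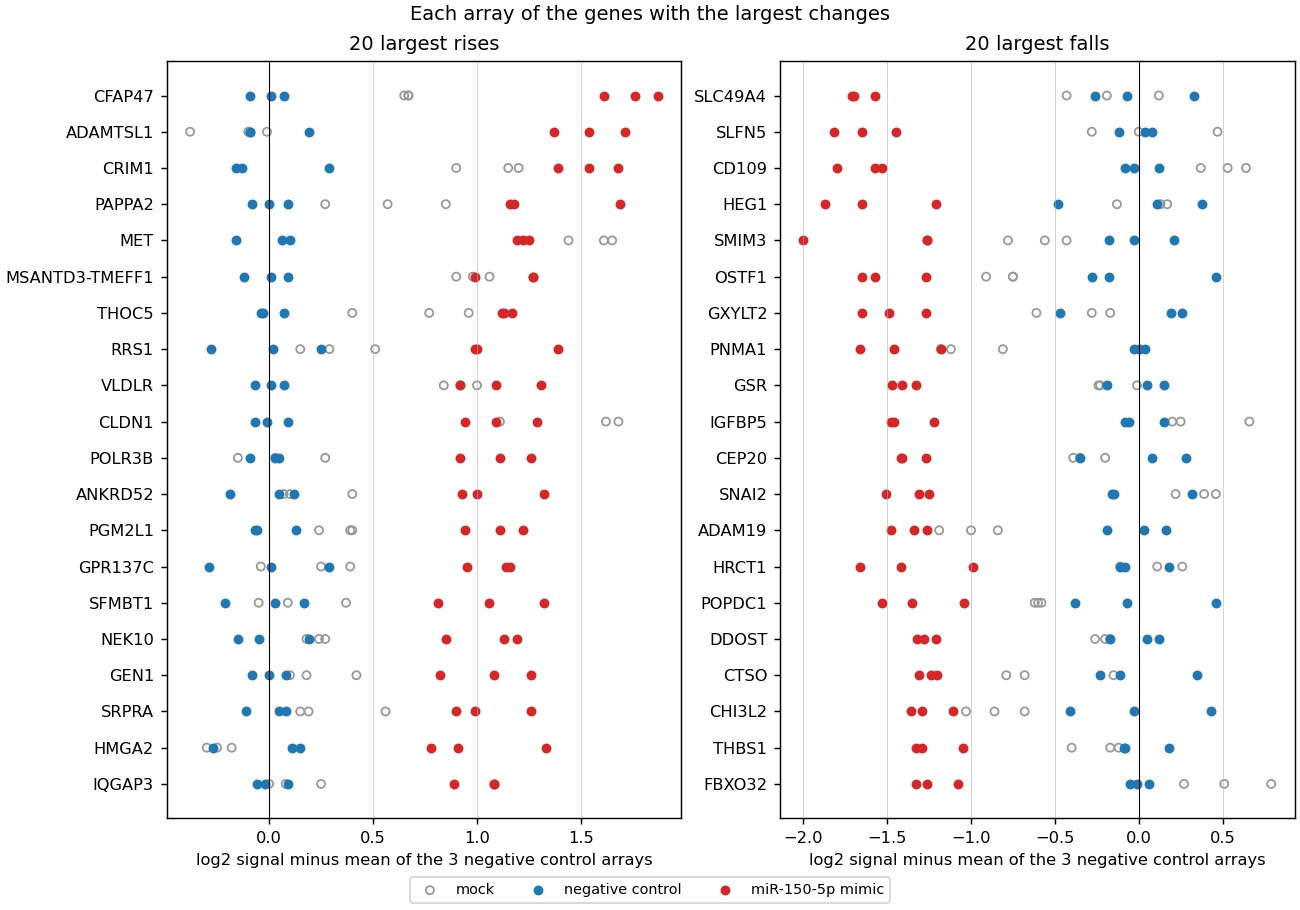
Log2 signal of each array minus the mean of the 3 NC arrays of that gene (horizontal axis) for the 20 genes with the largest rises and the 20 with the largest falls; filled blue points are NC, red points mimic and open points mock arrays. Red and blue points do not overlap in any of the 40 genes, which the rule for naming them required, whereas the open points lie near blue for SLFN5 and near or beyond red for MET and CLDN1.

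The genes were then read by list. Lists of growth and protein synthesis lay above 0 and those of adhesion and epithelial to mesenchymal transition below it, with medians from 0.45 for replication to -0.16 for antigen presentation. Of all genes at or above the median signal, 58.1% lay above 0, and these genes held at least 433 of the 473 calls. The replication, mitosis and ribosome lists consist almost wholly of such genes. Calls were more frequent among bright genes than the 3.18% over all genes, so a list's share of calls cannot be read against 3.18% alone. Brighter genes thus carried a shift of their own: their median was 0.046, against -0.028 for genes below the median signal. After a second quantile normalisation the median of the brighter genes was -0.021. That normalisation lowered the medians of the growth lists, to 0.34 for replication and 0.29 for ribosome biogenesis, and turned the sign of those of the NOTCH, glycolysis, respiratory chain, MAPK and lysosome lists.

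**Figure D3:**
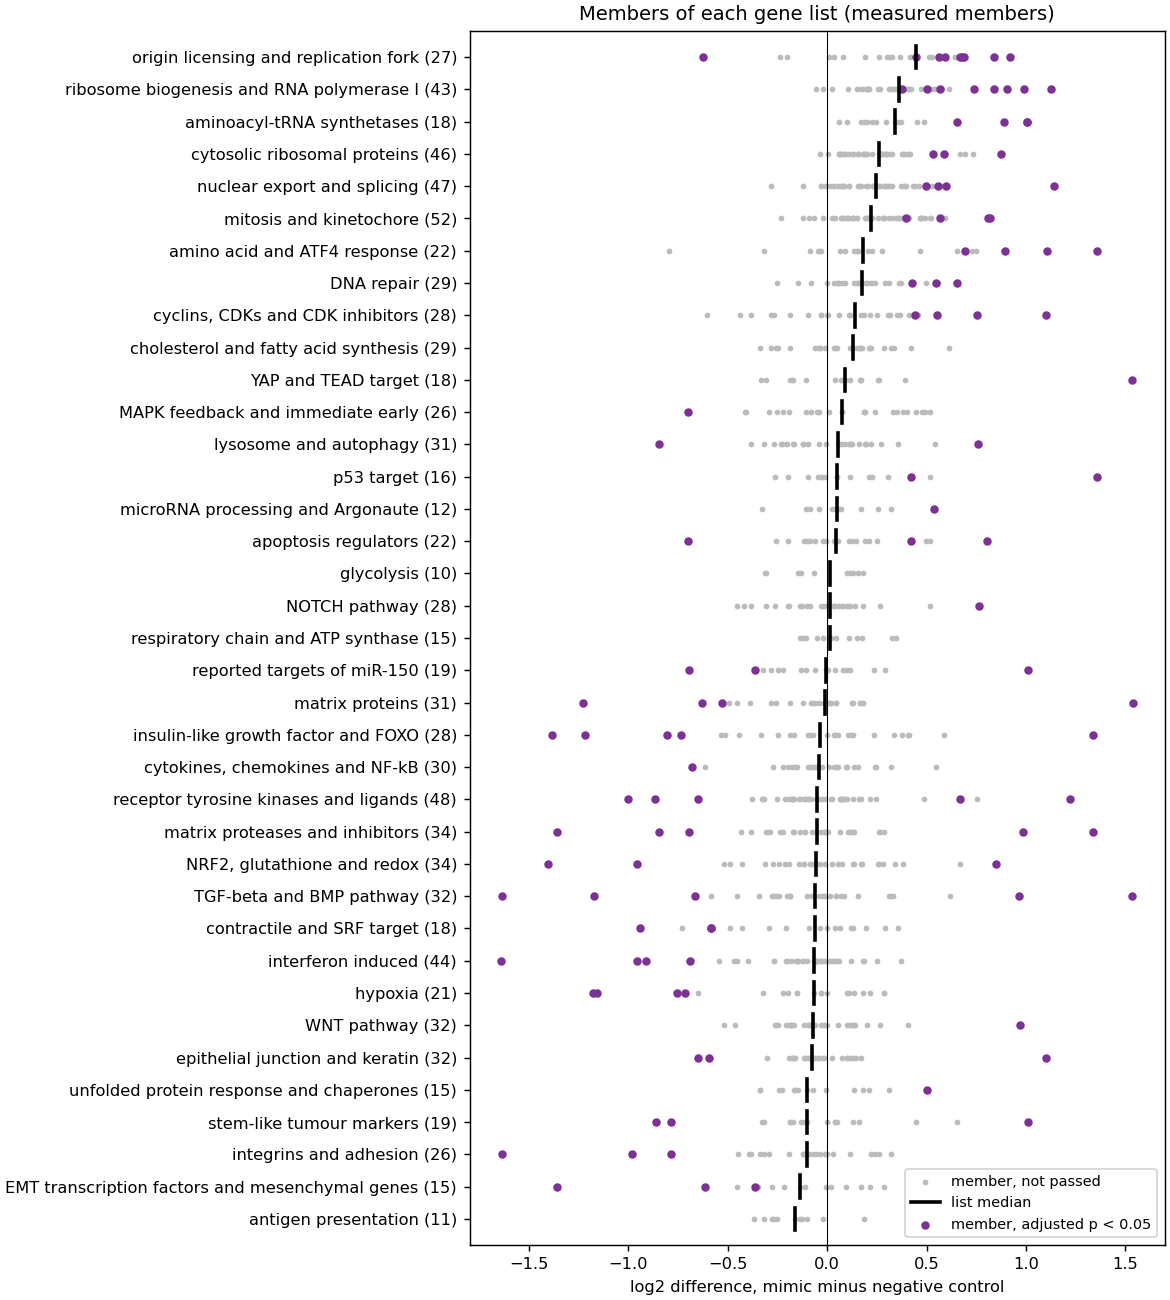
Log2 difference, mimic minus negative control (horizontal axis), of every measured member of each gene list, with the number of members in brackets; purple points passed an adjusted p under 0.05, grey points did not, and black bars are list medians. The medians run from 0.45 for replication to -0.16 for antigen presentation, and single purple members lie on the opposite side in several lists, such as CRIM1 at 1.53 in the TGF-beta and BMP list.

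Genes that drive epithelial to mesenchymal transition, in which carcinoma cells loosen their junctions and become motile, were lower with the mimic where they moved. Of 15 measured, 3 fell, 0 rose and 12 did not pass, with a median of -0.14. SNAI2, the repressor also called Slug, went from 6.89, 6.88 and 7.36 in NC to 5.53, 5.73 and 5.79 (2.57-fold lower, adjusted p = 0.0018), and mock read 7.26 to 7.50. TWIST1, another transcription factor on the list, fell from 5.14, 5.11 and 5.10 to 4.43, 4.64 and 4.43 (-0.61 ± 0.098, adjusted p = 0.011). The call was lost without mimic 1 or mimic 3 (up to 0.054). ZEB1, given above, was the third. The mesenchymal products VIM (0.10 ± 0.17), FN1 (0.21 ± 0.17) and AXL (0.17 ± 0.16) did not pass, nor did SNAI1 (-0.22 ± 0.10) or ZEB2 (0.02 ± 0.079). Without mimic 1 or mimic 3 the list kept 1 call.

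Epithelial genes gave no common direction. Of 32 junction and keratin genes, 1 rose, 2 fell and 29 did not pass (median -0.07). CLDN1 was the riser. The desmosomal cadherins DSG2 (7.27, 7.0 and 7.19 in NC, 6.58, 6.60 and 6.33 with the mimic) and DSC2 (4.97, 5.11 and 4.92 against 4.46, 4.58 and 4.17) fell by 0.65 and 0.59 on the log2 scale. DSG2 lost its call without NC 1, NC 3 or mimic 3 (up to 0.060) and DSC2 without any compared array but mimic 2 (up to 0.063). Of 19 genes of stem-like tumour cells, HMGA2 rose, and CD24, a surface sialoglycoprotein, fell from 8.82, 9.25 and 9.02 to 8.38, 7.98 and 8.39 (adjusted p = 0.016, 0.058 without NC 3). SOX9, a progenitor transcription factor, fell from 7.37, 6.98 and 7.55 to 6.13, 6.64 and 6.55 (adjusted p = 0.028), a call lost without mock 1, NC 1, NC 3 or any mimic array (up to 0.098).

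Matrix genes had no common direction. Of 31 measured, ADAMTSL1 rose and 3 fell, and the list median was -0.01. THBS1, the secreted glycoprotein thrombospondin that activates TGF-beta, went from 8.03, 8.04 and 8.30 in NC to 7.07, 6.83 and 6.79 (2.35-fold lower, adjusted p = 0.0011), with mock at 7.72 to 8.0. NID1, a basement membrane linker, fell from 5.70, 5.57 and 5.69 to 5.08, 4.99 and 5.01 (adjusted p = 0.0054). TNC, tenascin of wounds and tumour stroma, fell from 5.79, 5.56 and 5.41 to 5.06, 5.01 and 5.10, against 6.41 to 6.53 in mock, and lost its call without NC 1 or any mimic array (up to 0.084).

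Of 34 matrix proteases and inhibitors, 2 rose and 3 fell (median -0.05). CTSL, a lysosomal and secreted cathepsin, went from 9.95, 10.05 and 9.94 to 9.08, 9.29 and 9.04 (-0.84 ± 0.096, adjusted p = 0.0027), and mock read 10.09 to 10.33. ADAM19 and MMP14 were the other fallers. TFPI, an inhibitor of tissue factor, rose from 5.31, 5.68 and 5.37 to 6.57, 6.39 and 6.36 (1.98-fold, adjusted p = 0.0028), above mock at 5.15 to 5.35. PAPPA2, a protease that cleaves binding proteins of insulin-like growth factors, rose from 3.12, 3.20 and 3.29 to 4.36, 4.89 and 4.38 (2.53-fold, adjusted p = 0.0040).

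Adhesion and contractile genes moved down where they passed. In the 26 integrin and adhesion genes, CD109, CD24 and SDC4 fell and 0 rose (median -0.10). SDC4, a heparan sulfate proteoglycan of focal adhesions, went from 8.57, 8.69 and 8.49 to 7.58, 7.80 and 7.42 (-0.98 ± 0.15, adjusted p = 0.010, 0.051 without mimic 3). In the 18 contractile genes 3 fell and 0 rose (median -0.06). TAGLN2, an actin-binding protein, went from 5.63, 5.69 and 5.65 to 5.10, 5.14 and 4.98 (adjusted p = 0.0089), where mock read 5.11 to 5.38. TPM2, a tropomyosin, went from 7.35, 7.30 and 7.48 to 6.91, 6.81 and 6.65 (adjusted p = 0.014, up to 0.055 without NC 3 or mimic 3). OXTR, the oxytocin receptor, gave -0.94 ± 0.18 (adjusted p = 0.027) and lost its call without mock 1, any NC array, mimic 2 or mimic 3 (up to 0.095). The contractile list kept 1 call without NC 3 or mimic 3.

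TGF-beta and bone morphogenetic proteins (BMPs) are secreted ligands that signal through SMAD proteins. Of 32 genes of the pathway, 2 rose and 3 fell (median -0.06). Among the ligands, BMP4 went from 6.44, 6.81 and 6.84 to 5.57, 5.78 and 5.23 (2.25-fold lower, adjusted p = 0.0043), with mock at 6.36 to 6.56. BMP2 went from 4.27, 4.05 and 4.43 to 3.66, 3.62 and 3.48 and lost its call without NC 1, NC 3, mimic 2 or mimic 3 (up to 0.068). Of the membrane proteins that bind ligands, CD109 fell and CRIM1 rose, from 6.99, 6.54 and 6.57 to 8.24, 8.38 and 8.09 (2.89-fold, adjusted p = 0.0011), with mock at 7.60 to 7.90. SMURF2, a ubiquitin ligase that removes SMADs and receptors, rose from 8.09, 7.86 and 7.92 to 8.87, 8.97 and 8.93 (1.95-fold, adjusted p = 0.0022), against 8.46 to 8.82 in mock.

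In the insulin-like growth factor and FOXO list of 28 genes, 1 rose and 4 fell (median -0.03). IGFBP5, a binding protein that holds the growth factor in the matrix, went from 6.18, 6.16 and 6.39 to 4.78, 5.02 and 4.76 (adjusted p = 0.0014), while its protease PAPPA2 rose. FBXO32, a muscle atrophy ubiquitin ligase known as a FOXO target, went from 7.95, 7.99 and 8.06 to 6.67, 6.92 and 6.74 (2.33-fold lower, adjusted p = 0.0019), and mock read 8.27 to 8.79. FOXO1 itself went from 4.77, 4.76 and 4.67 to 4.35, 3.83 and 3.83 (-0.73 ± 0.15, adjusted p = 0.033) and lost its call without any NC array, mimic 2 or mimic 3 (up to 0.11). KLF9, a transcription factor of growth arrest, went from 4.14, 4.04 and 4.20 to 3.45, 3.30 and 3.20, lost without NC 1, NC 3, mimic 2 or mimic 3 (up to 0.062).

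Of 48 receptor tyrosine kinases and their ligands, 2 rose and 3 fell (median -0.05). MET was 1 riser. FGF5, a secreted fibroblast growth factor, rose from 8.51, 8.51 and 8.43 to 9.18, 9.17 and 9.11 (0.67 ± 0.072, adjusted p = 0.0020), above mock at 8.66 to 8.75. ROR1, a WNT5A receptor of tumour cells, went from 5.04, 5.05 and 5.37 to 4.09, 4.33 and 4.02 (2.00-fold lower, adjusted p = 0.0035), where mock read 4.13 to 4.37. The ephrin EFNB1 (-0.87 ± 0.15, adjusted p = 0.016) lost its call without NC 1, mimic 2 or mimic 3 (up to 0.066), and the receptor FGFR2 (-0.65 ± 0.14, adjusted p = 0.043) without mock 2 or any compared array (up to 0.14).

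Other signalling lists held 1 call each, a share near the 3.18% of all genes in the NOTCH (3.57%), WNT (3.13%), MAPK (3.85%) and cytokine (3.33%) lists, and 5.56% in the shorter YAP and TEAD list. Of the 18 YAP and TEAD genes 16 lay at or above the median signal, as did 24 of the 26 MAPK genes. Calls were more frequent among such genes than over all genes. Of 28 NOTCH pathway genes only the ligand JAG1 passed, at 4.17, 4.58 and 4.15 in NC, 4.88, 5.27 and 5.06 with the mimic and 4.98 to 5.32 in mock (0.77 ± 0.15, adjusted p = 0.026, lost without mock 1, NC 1, NC 3, mimic 2 or mimic 3, up to 0.094). RBPJ, the transcription factor of the pathway, was just outside the threshold (0.52 ± 0.12, adjusted p = 0.054). Of 32 WNT genes only DKK1, a secreted inhibitor, passed, at 5.54, 6.36 and 5.90 against 7.10, 6.76 and 6.86 (0.97 ± 0.18, adjusted p = 0.022, lost without NC 3 or any mimic array, up to 0.091). CRIM1 was the sole call among 18 YAP and TEAD targets. Of 26 MAPK feedback and immediate early genes, IER3 fell from 6.54, 7.0 and 6.92 to 6.04, 6.22 and 6.09, lost without NC 3, mimic 1 or mimic 3 (up to 0.082). Of the 10 other features of IER3, 5 gave -0.74 to -0.78 and 5 gave -0.03, and averaged over its features the gene was not called (-0.42, adjusted p = 0.13). Of 30 cytokine and NF-kB genes, IL7 gave -0.68 ± 0.15 (adjusted p = 0.042), lost without any array but mock 3 and NC 3 (up to 0.14).

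**Figure D4:**
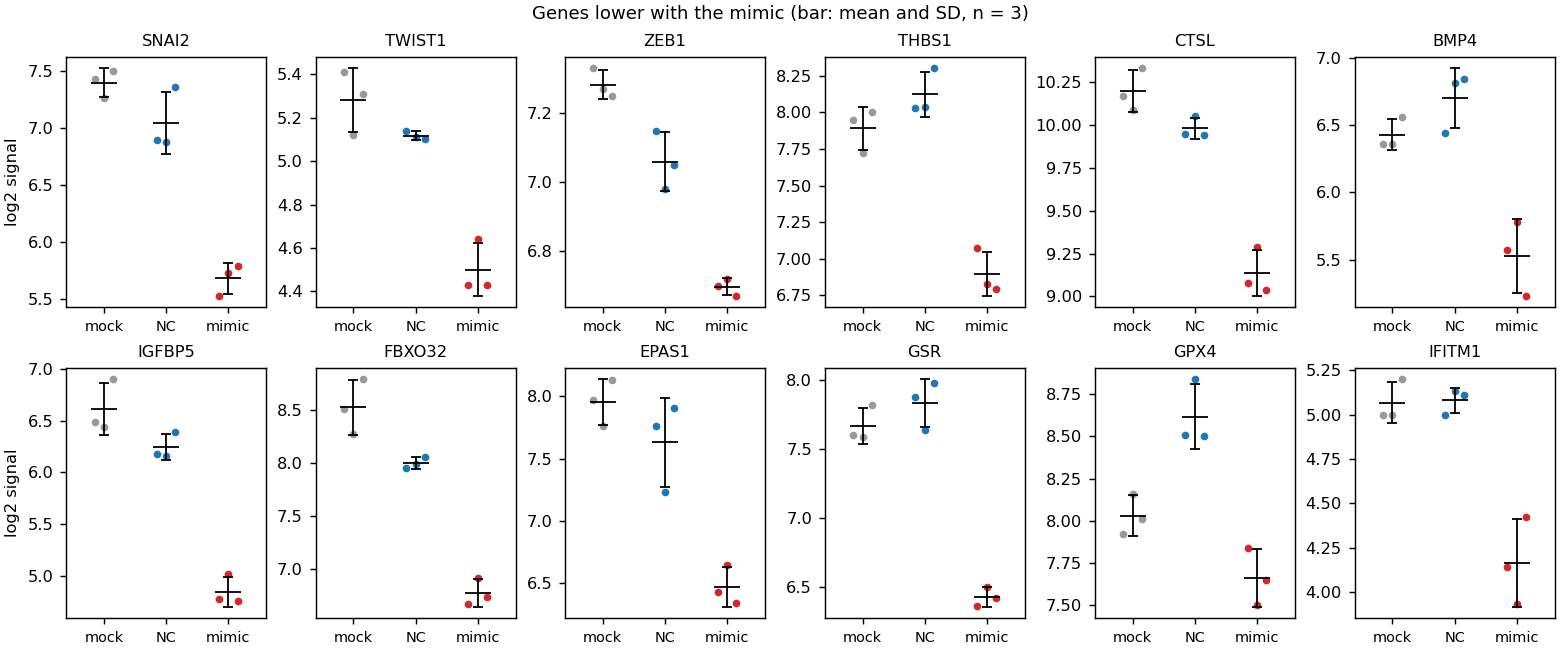
Log2 signal (vertical axes, which do not start at 0) of 12 genes lower with the mimic, by group; points are arrays and bars are the mean and SD of 3 arrays. Red mimic points lie below all blue NC points in each panel, and for GPX4 the grey mock points lie between the other groups.

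Genes of DNA replication made up the list with the highest median. Replication starts from origins on which the MCM complex, a ring of related subunits that unwinds DNA, is loaded by CDC6. Of 27 genes measured, 8 rose, 1 fell and 18 did not pass, 24 lay above 0, and the median was 0.45 (0.34 after a second quantile normalisation, with 4 rising and 1 falling). In NC against mock the list median was 0.17, with 2 genes called higher. MCM2 rose from 5.87, 6.14 and 5.88 in NC to 7.14, 6.62 and 6.88 (1.89-fold, adjusted p = 0.0089), MCM3 from 7.03, 7.25 and 6.98 to 7.90, 7.67 and 7.73 (1.60-fold), and MCM4 from 7.49, 7.30 and 7.32 to 8.11, 8.04 and 7.95 (1.59-fold). In each of the 3 subunits all mimic arrays exceeded all NC and mock arrays. CDC6 rose from 4.37, 4.70 and 4.16 to 5.28, 5.25 and 5.23 and lost its call without NC 1 or any mimic array (up to 0.059). MCM6 (0.56 ± 0.12), GINS4 (0.69 ± 0.16), WDHD1 (0.59 ± 0.13) and UHRF1 (0.45 ± 0.085) also passed, each losing its call without NC 3 and every mimic array in turn, among others (up to 0.14, 0.16, 0.13 and 0.097), and the other feature of GINS4 gave only 0.23. The list kept between 3 calls (without mimic 3) and 10. The faller was RRM2, a ribonucleotide reductase subunit, from 6.79, 6.66 and 6.49 to 6.13, 5.94 and 5.97, near mock at 5.92 to 6.13 (adjusted p = 0.013, up to 0.057 without mimic 2 or mimic 3).

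The promoters of replication genes often hold the letters that E2F factors, the regulators of S phase entry, recognise. TTTNGCGC, read on both strands of the sequence around the start site, was present in 9 of 24 replication promoters (37.5%). Over all tested genes with a promoter in the RefSeq table (GRCh38.p14) it was present in 265 of 10749 (2.46%). Of the replication genes that passed, 7 had a promoter in that table, and 4 of these held the match. These 4 promoters are shown because their genes moved together; capitals mark the match. A match describes the sequence and is not shown to be a site in use.
CDC6, chr17:40287876-40287903, plus strand: gccattcggaTTTGGCGCgagcgcggct
MCM2, chr3:127598403-127598430, plus strand: gtgaaccactTTTCGCGCgaaacctggt
MCM3, chr6:52284729-52284756, minus strand: gttcggaagtTTTCGCGCcggggtggag
MCM6, chr2:135876578-135876605, minus strand: gggctttgcaTTTGGCGCgaaatccctt

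In MCM2 and MCM6 the match continues into the same letters on the opposite strand, so both strands count once per promoter. The other cell cycle lists had lower medians. Of 28 cyclins, kinases and their inhibitors, 4 rose and 0 fell (median 0.14). The cyclin E genes CCNE2 (5.24, 5.77 and 5.21 in NC, 6.87, 6.18 and 6.48 with the mimic) and CCNE1 (5.49, 5.41 and 4.98 against 6.21, 5.94 and 5.99), which drive entry into S phase, rose 2.15-fold and 1.68-fold. CCNE2 lost its call without NC 1, NC 3, mimic 1 or mimic 3 (up to 0.070) and CCNE1 without any array but mock 2 (up to 0.17). CDK6 (0.55 ± 0.11) and E2F7 (0.44 ± 0.096) were the others, and no call of this list was kept when NC 1, NC 3 or mimic 1 was left out. After a second quantile normalisation the list kept 2 calls.

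Of 52 mitosis genes 4 rose and 0 fell, 47 lay above 0 and the median was 0.22. The share called was 7.69%, against 3.18% of all genes, and 51 of the 52 lay at or above the median signal. In NC against mock the median of the same list was also 0.22, with 1 gene called higher. RANGAP1, the GTPase activator of Ran at nuclear pores and kinetochores, rose from 5.59, 5.82 and 5.87 to 6.68, 6.57 and 6.45 (1.75-fold, adjusted p = 0.0039), with mock at 5.45 to 5.60. ESPL1, the separase that cuts cohesin, rose from 4.07, 3.84 and 4.10 to 4.49, 5.13 and 4.83, lost without any compared array but mimic 1 (up to 0.096). BUB3 (0.57 ± 0.11) and GTSE1 (0.40 ± 0.084) also passed and lost their calls without NC 1, NC 3 or any mimic array, GTSE1 among others (up to 0.084 and 0.12), and 1 call was left in the list without NC 1, NC 3, mimic 2 or mimic 3. Of 29 DNA repair genes, EXO1, XRCC1 and XRCC2 passed, all upward, by 0.55 ± 0.093, 0.43 ± 0.087 and 0.66 ± 0.14, and none of the 3 kept its call without NC 3 or without mimic 1.

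**Figure D5:**
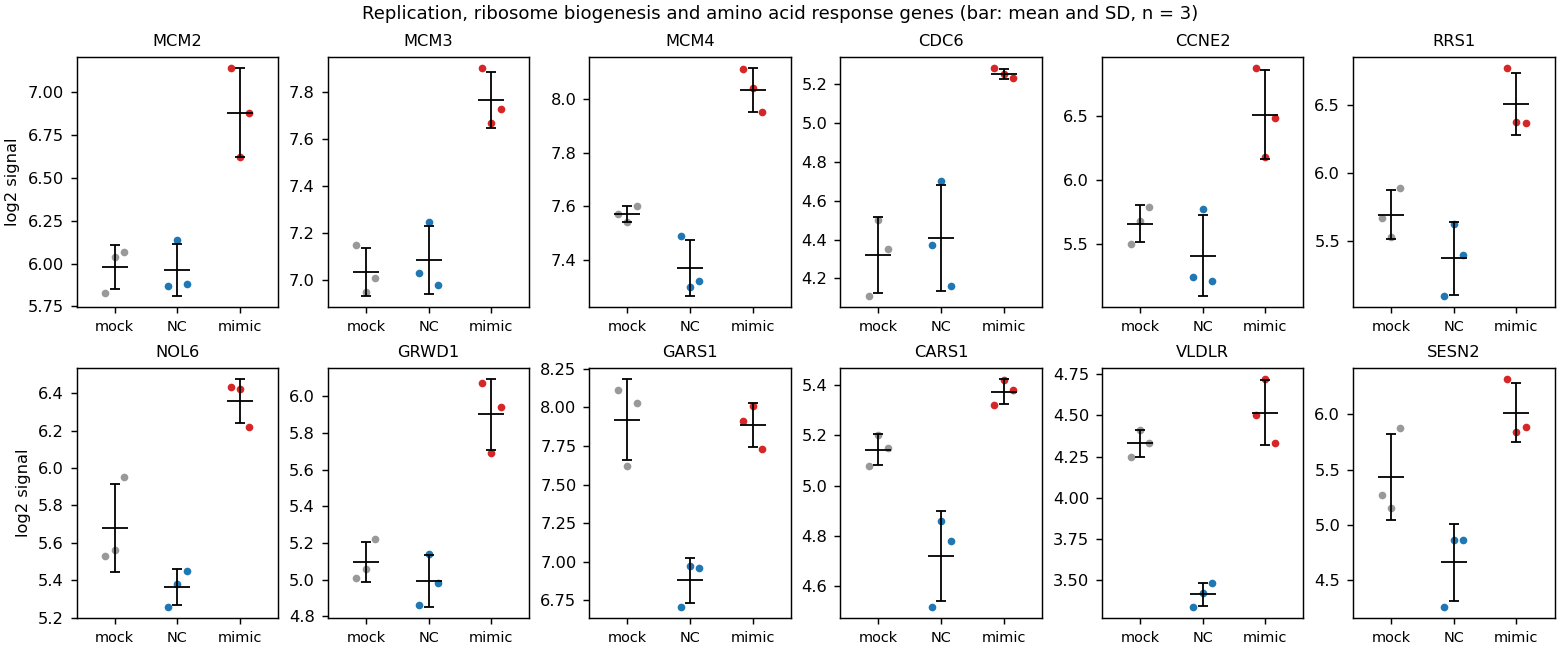
Log2 signal (vertical axes, which do not start at 0) of 12 genes of replication, ribosome biogenesis and the amino acid response that were higher with the mimic than with NC; points are arrays and bars the mean and SD of 3 arrays. For MCM2, MCM3 and GRWD1 the grey mock points lie with the blue NC points, whereas for GARS1 and VLDLR they lie with the red mimic points.

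Ribosomes are assembled in the nucleolus from RNA made by RNA polymerase I and imported proteins. Of 43 genes of this process, 8 rose, 0 fell and 35 did not pass, 41 lay above 0 and the median was 0.36. RRS1, which brings the 5S particle into the large subunit, rose from 5.10, 5.63 and 5.40 to 6.77, 6.38 and 6.37 (2.18-fold, adjusted p = 0.0068). NOL6, of small subunit processing, rose from 5.26, 5.38 and 5.45 to 6.43, 6.42 and 6.22 (1.99-fold, adjusted p = 0.0037), and GRWD1, a chaperone of a ribosomal protein, from 4.86, 5.14 and 4.98 to 6.07, 5.69 and 5.94 (1.88-fold, adjusted p = 0.0042). The mimic arrays of these 3 genes exceeded all NC and mock arrays. RRP12 (0.84 ± 0.18), DDX10 (0.74 ± 0.13), DDX21 (0.57 ± 0.093), HEATR1 (0.50 ± 0.11) and DDX52 (0.38 ± 0.079) passed with all arrays. DDX21 lost its call without mimic 1 (0.057), DDX10 without NC 1, NC 3 or mimic 3 (up to 0.069), and the other three without NC 3 and each mimic array in turn, among others (up to 0.14, 0.12 and 0.12). The list kept 4 calls without NC 3, mimic 1 or mimic 3.

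CACGTG, the E-box read by MYC, was found in 14 of 36 promoters of the list (38.9%) against 9.02% of all 10749, though in only 1 of the 5 of its genes that passed and had a promoter in the table. That gene is NOL6, shown with the motif in capitals.
NOL6, chr9:33473896-33473921, minus strand: catttccgccCACGTGggaagctatg

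Of the cytosolic ribosomal protein genes 45 of 46 lay above 0, with a median of 0.26 (0.17 after a second quantile normalisation). At or above the median signal were 45 of the 46. Only RPL32 (0.88 ± 0.19), RPL35A (0.59 ± 0.12) and RPL34 (0.54 ± 0.095) passed, 6.52% of the list against 3.18% of all genes. None of these 3 calls was kept without NC 3, mimic 1 or mimic 2, and the genes have many near-identical pseudogene copies, which the array's probes may share.

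Aminoacyl-tRNA synthetases charge transfer RNAs with amino acids. All 18 measured lay above 0, with a median of 0.34, and 4 of them passed. In NC against mock the list median was -0.25, with 1 gene called lower and 0 higher. GARS1, the glycine enzyme, rose from 6.71, 6.97 and 6.96 to 7.91, 8.01 and 7.73 (2.01-fold, adjusted p = 0.0059), and CARS1, the cysteine enzyme, from 4.52, 4.86 and 4.78 to 5.32, 5.42 and 5.38 (1.57-fold, adjusted p = 0.0079). MARS1, the methionine enzyme, rose from 5.97, 6.47 and 6.32 to 7.36, 7.29 and 7.12, lost without NC 1, NC 3, mimic 1 or mimic 2 (up to 0.069). Here the mock arrays were near the mimic: GARS1 read 7.62 to 8.11, MARS1 6.57 to 7.21 and CARS1 5.08 to 5.20 in mock. WARS1, for tryptophan, gave 0.89 ± 0.20 (adjusted p = 0.047), lost without mock 1 or any compared array (up to 0.15), and its other feature gave only 0.05, with no call when both were averaged (adjusted p = 0.092). Among the others TARS1 was nearest to passing (0.37 ± 0.098, adjusted p = 0.082). The list kept 2 calls without NC 1, NC 3, mimic 1 or mimic 2.

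ATF4 is the transcription factor that raises amino acid synthesis and uptake under amino acid shortage or endoplasmic reticulum stress. Of 22 genes of this response 4 rose and 0 fell (median 0.18). Besides VLDLR these were SESN2, a stress-induced sestrin (4.26, 4.86 and 4.86 in NC, 6.32, 5.84 and 5.89 with the mimic, 2.56-fold, adjusted p = 0.060 without mimic 1), PSAT1, of serine synthesis (8.29, 8.92 and 8.52 against 9.63, 9.37 and 9.41), and ASNS, asparagine synthetase (5.71, 6.31 and 5.91 against 6.69, 6.67 and 6.66). PSAT1 and ASNS lost their calls without NC 1, NC 3 or any mimic array (up to 0.089 and 0.097). In mock these genes read 5.15 to 5.88, 8.89 to 9.31 and 6.83 to 7.03, closer to the mimic than to NC. Over the whole list, NC against mock gave a median of -0.26, with 3 genes called lower and 0 higher. Without mimic 1 the list kept 1 call. Of 15 genes of the unfolded protein response only XBP1, its transcription factor, passed (0.50 ± 0.086, adjusted p = 0.016), lost without NC 3, mimic 1 or mimic 3 (up to 0.062), and 10 of the 15 lay below 0.

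TGATGNAA, the composite element that ATF4 binds, was present in 6 of 15 synthetase promoters and in 3 of 18 of the amino acid response, against 2.24% of all 10749. Those of the genes that passed are shown, the first pair on the strand opposite to the letters searched, with capitals for the match.
CARS1, chr11:3057408-3057435, minus strand: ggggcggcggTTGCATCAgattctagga
MARS1, chr12:57488054-57488081, plus strand: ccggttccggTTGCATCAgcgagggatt
ASNS, chr7:97872459-97872486, minus strand: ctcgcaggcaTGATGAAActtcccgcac

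Genes of nuclear export and splicing lay above 0 in 41 of 47 cases (median 0.25), and 4 rose. THOC5, of the THO complex that prepares messenger RNA for export, went from 6.10, 6.21 and 6.11 to 7.31, 7.27 and 7.26 (2.20-fold, adjusted p = 0.0025), the mimic arrays differing by less than 0.1 among themselves, with mock at 6.54 to 7.10. The nuclear pore scaffold proteins NUP205 (0.60 ± 0.099, adjusted p = 0.013, up to 0.053 without NC 3 or mimic 1) and NUP160 (0.50 ± 0.097, up to 0.10 without each compared array) and the splicing factor SRSF2 (0.56 ± 0.12, up to 0.16 without any array but mock 2) were the others. Without NC 3 or mimic 1 the list kept 1 call.

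Interferon-induced genes serve antiviral defence, and some respond to foreign RNA. Of 44 measured, 4 fell, 0 rose and 34 lay below 0, with a median of -0.06. Only 18 of the 44 lay at or above the median signal, and all tested genes below that signal had a median of -0.028. Beside SLFN5, IFITM1, a membrane protein that blocks virus entry, went from 5.00, 5.13 and 5.11 to 4.14, 3.93 and 4.42 (-0.91 ± 0.12, adjusted p = 0.0054), with mock at 5.00 to 5.20. IFITM3, its neighbour on chromosome 11, went from 3.69, 4.31 and 4.52 to 3.28, 3.19 and 3.18, lost without mock 1, NC 2, NC 3 or any mimic array (up to 0.096). ISG15, a ubiquitin-like modifier, went from 6.04, 6.14 and 5.63 to 5.26, 5.08 and 5.40, lost without any array but mock 2 and NC 3 (up to 0.13). IFITM1 and IFITM3 are similar in sequence, so that probes may share transcripts. The list kept 2 calls without mock 1, NC 2 or any mimic array. In antigen presentation, 10 of 11 genes lay below 0 (median -0.16), 0 passed in limma and 1 had an unadjusted p under 0.05, with B2M, the light chain of class I molecules, at -0.32 ± 0.11 (adjusted p = 0.19).

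The letters GAAA repeated after any 2 bases, on either strand, the core of the interferon-stimulated response element, were present in 20 of 32 interferon list promoters (62.5%), against 2.94% of all 10749, and in all 3 that passed and had a promoter in the table. A window from each is shown, with the match in capitals.
IFITM1, chr11:314024-314053, plus strand: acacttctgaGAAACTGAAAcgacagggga
IFITM3, chr11:320876-320905, minus strand: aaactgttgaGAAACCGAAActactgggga
ISG15, chr1:1013380-1013409, plus strand: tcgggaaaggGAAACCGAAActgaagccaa

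Redox genes moved in both directions. Of 34 measured, 1 rose and 2 fell (median -0.05). GSR, which regenerates glutathione, went from 7.88, 7.64 and 7.98 to 6.36, 6.50 and 6.42 (2.65-fold lower, adjusted p = 0.00051), below mock at 7.59 to 7.82. GPX4, which uses glutathione to reduce lipid peroxides, went from 8.51, 8.84 and 8.50 to 7.84, 7.50 and 7.65 (1.94-fold lower, adjusted p = 0.0042), with mock at 7.92 to 8.16. HMOX1, the stress-induced heme oxygenase, rose from 7.62, 7.49 and 7.48 to 8.41, 8.24 and 8.49 (1.80-fold, adjusted p = 0.0016), with mock at 8.10 to 8.13.

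Of 21 hypoxia genes, 4 fell and 0 rose (median -0.07). EPAS1, the oxygen-regulated factor HIF-2 alpha, went from 7.76, 7.23 and 7.91 to 6.43, 6.65 and 6.34 (2.23-fold lower, adjusted p = 0.0088). CA12, a carbonic anhydrase of the cell surface, went from 5.96, 5.78 and 6.19 to 4.73, 4.85 and 4.81 (2.26-fold lower, adjusted p = 0.0066), and STC1, a secreted stanniocalcin, from 7.97, 8.20 and 8.16 to 7.29, 7.51 and 7.27 (1.69-fold lower, adjusted p = 0.0096). Mock arrays of these 3 genes lay with NC, at 7.76 to 8.13, 5.82 to 6.43 and 7.97 to 8.33. NDRG1 (-0.71 ± 0.14, adjusted p = 0.024) lost its call without any compared array but NC 3 (up to 0.089).

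In core metabolism, 0 of 10 glycolysis, 0 of 29 cholesterol and fatty acid and 0 of 15 respiratory chain genes passed, with medians of 0.01, 0.13 and 0.01, and 2, 5 and 0 had an unadjusted p under 0.05 in limma. Lists this short hold few calls or none at the 3.18% of all genes. In these lists 10 of 10, 28 of 29 and 15 of 15 genes lay at or above the median signal. Such genes held at least 433 of the 473 calls, so 3.18% is too low a share to set beside these lists. Of 22 apoptosis regulators 2 rose and 1, IER3, fell (median 0.05). MCL1, a short-lived survival protein, rose from 7.02, 6.88 and 7.04 to 7.73, 7.84 and 7.79 (1.75-fold, adjusted p = 0.0025), with mock between them at 7.32 to 7.58. BAX, a pore-forming death protein and p53 target, gave 0.42 ± 0.090 (adjusted p = 0.038) and lost its call without any array but NC 3 (up to 0.13). BAX and SESN2 were the 2 calls among 16 p53 targets, and neither was kept without mimic 1. Of 31 lysosome and autophagy genes, CTSL fell and MCOLN1, a lysosomal calcium channel, rose from 4.51, 4.93 and 4.79 to 5.33, 5.52 and 5.66 (adjusted p = 0.013, up to 0.056 without mimic 2 or mimic 3). These 2 calls made up 6.45% of a list with 29 of its 31 genes at or above the median signal.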

How the data were processed

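Total RNA of 9 samples was read on Affymetrix Human Gene 2.0 ST arrays. The labelling kit named in the labels, FlashTag biotin, is one mostly sold for short RNAs. Its use with these whole-transcript arrays is not described, so which part of the RNA the signals represent is uncertain. The deposited values are log2 signals that the authors made with RMA, per the submitters' processing notes, which corrects background, equalises array distributions and sums probes. No RMA version or array definition is given in the sources used here. RMA can compress the differences of weakly expressed genes. Of 53617 features, 16098 had exactly 1 gene symbol in the platform annotation; 779 genes had several, and the brightest over the 9 arrays was taken. The limma package (version 3.58.1, R 4.3.3; lmFit, eBayes) was fitted to all 9 arrays with 1 mean per group and no covariates (6 residual degrees of freedom), two-sided, with Benjamini-Hochberg adjustment over the 14884 genes and no filter on signal. The fit was tested on simulated data. The genes named are the 20 largest rises and falls among genes that kept their call without each array, with microRNA, small nucleolar and uncharacterised loci counted apart (26 called), plus passing members of 42 lists (985 of 1598 symbols measured; the proteasome list had none) and MYB, NOTCH3, ZEB1 and CXCR4. Other list members are named with values. The comparison, genes and lists were chosen with earlier results of these data known, so no count over a list is independent support. Same-numbered mimic and NC arrays deviated from their group means with r = -0.11, -0.29 and -0.07 and were not treated as pairs. For differently numbered arrays r ran from -0.18 (mimic 1 and NC 3) to 0.24 (mimic 1 and NC 2). It was positive where both arrays had the same small nucleolar RNA level, higher or lower, and negative elsewhere. No term for that level was fitted. Alternatives were a second quantile normalisation, centring on array medians, a filter at the median signal (3.34), a gene's features averaged, a variance trend with robust variance, the 6 compared arrays alone, the replicate block and omission of each array.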

Additional observations from a re-analysis of the deposited data

Results flagged for a closer look

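Of the 37519 array features without a single gene symbol, which no comparison above used, 70 were higher and 60 lower with the mimic than with the negative control at an adjusted p under 0.05 in limma, when all 53617 features were fitted together. Which transcripts these features measure was not analysed here.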

How the results depend on the processing

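The count of 473 changed genes stayed within 1.5 times under a second quantile normalisation (465), centring (456), a filter at the median signal (594), averaged features of a gene (472) and a variance trend (390). It was 251 (134 higher, 117 lower) with the 6 compared arrays alone, where the spread has fewer arrays behind it, and 199 to 431 when 1 array was left out (100 to 252 higher, 84 to 188 lower, lowest without mimic 1 and mimic 3). With the replicate block 292 genes were changed (161 higher, 131 lower), 280 of them among the 473; the numbers mark no stated pairing. Of the 473, 378 were also called after the second quantile normalisation, 236 with the 6 arrays and 143 in every omission. The 40 genes with the largest changes, chosen for their calls in the omissions, kept their call under these 7 alternatives, with adjusted p up to 0.047 (6 arrays). None of the 213 called genes followed changed direction; these include all 143 by choice. NOTCH3, not called, went from 0.10 to -0.005 (second normalisation), -0.068 (without NC 2) and -0.003 (without mimic 2), within -0.068 to 0.316 over the omissions. The cause of these shifts was not tested. The 3 arrays per group limit the precision.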

Other observations

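Loci of microRNAs and their host genes were measured by 1098 genes of the table, of which 14 (1.27%) were called, 7 in each direction, and the median was -0.02. The genes described here were chosen after their values were seen. Such features read transcripts that cover the locus and cannot tell a mature microRNA from its precursor. MIR21, the locus of a microRNA abundant in tumours, read 7.36, 7.28 and 7.13 in NC, 8.06, 8.05 and 8.06 with the mimic and 7.83 to 7.96 in mock (0.80 ± 0.084, adjusted p = 0.0018 in limma). MIR155, of a microRNA known from inflammation, read 3.08, 3.08 and 3.49 against 4.25, 4.01 and 3.94 (0.85 ± 0.13, adjusted p = 0.0091). MIR31HG, a long noncoding host RNA, read 5.83, 6.28 and 6.40 against 7.57, 7.39 and 7.17 (1.21 ± 0.18, adjusted p = 0.0074). Against mock, limma called MIR155 higher with the mimic (0.70, adjusted p = 0.020). It did not call MIR31HG (0.70, adjusted p = 0.060) or MIR21 (0.18, adjusted p = 0.30) in that comparison. MIR21 was called lower in NC than in mock (-0.62, adjusted p = 0.012). In all 3 the mimic arrays lay above every NC and mock array, for MIR21 by little, and the calls against NC were kept without each array. MIR100 (1.13 ± 0.23) and MIRLET7A2 (0.92 ± 0.17), which neighbour each other on chromosome 11, and MIR15B (1.01 ± 0.22) also passed; MIR100 was lost without mock 1, any NC array, mimic 1 or mimic 3 (up to 0.11), MIRLET7A2 without NC 1 or NC 2 (up to 0.058) and MIR15B without mock 2 or any compared array (up to 0.15). MIR17HG (0.39 ± 0.088) was the other riser and lost its call without any 1 of the 9 arrays. The 7 lower loci were MIR3159 (-0.99 ± 0.17), MIR4799 (-0.65 ± 0.14), MIR376A2 (-0.63 ± 0.13), MIR139 (-0.63 ± 0.13), MIR4476 (-0.60 ± 0.11), MIR3689B (-0.56 ± 0.11) and MIR378D1 (-0.45 ± 0.089), and none of these 7 calls was kept without each array (highest adjusted p 0.066 to 0.14). The mature strands below, from RefSeq on GRCh38.p14 and shown because they identify these loci, have the seed, bases 2 to 8, in capitals, and no 2 of them share it.
hsa-miR-21-5p, chr17:59841273-59841294, plus strand: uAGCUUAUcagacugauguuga
hsa-miR-155-5p, chr21:25573983-25574006, plus strand: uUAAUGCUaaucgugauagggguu
hsa-let-7a-5p, chr11:122146568-122146589, minus strand: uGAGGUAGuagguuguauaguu
hsa-miR-100-5p, chr11:122152275-122152296, minus strand: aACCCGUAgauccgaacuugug

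The genes that follow are in no list and were picked, after their values were seen, from those that kept their call without each array, so they stand for no group. The transcription factor TFAP2C, of mammary and placental development, went from 4.21, 4.58 and 4.48 in NC to 3.59, 3.38 and 3.25 with the mimic (2.02-fold lower, adjusted p = 0.0036), and EOMES, also a transcription factor, from 5.91, 5.91 and 5.95 to 5.22, 5.33 and 5.05, with mock at 6.52 to 6.70. MYBL1, a relative of MYB, rose from 8.70, 8.31 and 8.54 to 9.29, 9.21 and 9.19 (1.64-fold, adjusted p = 0.0073). ACSL4, which loads polyunsaturated fatty acids, went from 8.36, 8.23 and 8.23 to 7.57, 7.22 and 7.40, with mock at 8.42 to 8.62, and SAT1, which acetylates polyamines, from 7.70, 7.90 and 7.71 to 7.10, 6.81 and 6.91, with mock at 7.68 to 7.75. LOXL1, an elastin cross-linking oxidase, went from 7.23, 7.43 and 7.22 to 6.40, 6.41 and 6.40 (1.86-fold lower, adjusted p = 0.0011). RRAS, a small GTPase, went from 7.36, 7.48 and 8.03 to 6.53, 6.45 and 6.32 (2.28-fold lower, adjusted p = 0.0054), with mock at 6.88 to 7.14.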
